A study of Mus musculus with 3 samples.

Results

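Distal posterior limb mesenchyme without the p53 program was taken from single-cell RNA sequencing of mouse forelimb buds at embryonic day 9.5. A barcode was kept when it held at least 2000 genes and under 10% mitochondrial unique molecular identifiers (UMIs, which count captured transcripts). Levels per cell were written as CP10K, the UMIs of a gene per 10000 UMIs of the barcode. A member had at least 2 CP10K of Prrx1, Tbx5 and Twist1 together (limb mesenchyme), under 1 CP10K of Cdh5, Pecam1 and Emcn (endothelium) and under 1 CP10K of Epcam, Trp63 and Wnt6 (ectoderm). It also had at least 2 CP10K of Lhx2 and Lhx9 (distal), at least 1 UMI of Hand2 (posterior), and UMIs in fewer than 2 of Cdkn1a, Ano3, Eda2r, Trp53inp1 and Ddit4l (p53 targets). These criteria held for 1124 of 22501 barcodes: 243 of 7219 in mutant 1, 652 of 8755 in mutant 2 and 229 of 6527 in control 1. The members were thus chosen by measured levels of these 17 genes, which are described here without a test.

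The 2 mutant libraries came from Esco2fl/fl;Prrx1-CreTg/0 embryos and the control library from Esco2fl/fl embryos, so all 3 carried the floxed Esco2 allele on both copies and the control lacked Cre. The Prrx1-Cre transgene drives recombination in early limb bud mesenchyme, and not in blood cells, and begins to act at about this stage. Per the submitters' design a library pooled 2 limb buds from each of 3 samples, 2 male and 1 female, which makes 6 limb buds. Whether the libraries came from separate litters is not stated, so p-values measure only the spread between these libraries, which may be technical. With 1 control library, that spread was estimated from the 2 mutants alone.

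Esco2 acetylates the cohesin ring during DNA replication, which lets the ring hold sister chromatids together until mitosis, and cells that lose it can die with active p53. The posterior distal mesenchyme of the early limb bud holds the zone of polarizing activity, where Hand2 helps to switch on Sonic hedgehog (Shh). Shh signals through the receptor Ptch1 and the Gli factors to raise Ptch1, Gli1, 5′ HoxD genes and Grem1, and so shapes digit identity and sustains the apical ectodermal ridge.

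The members carried the markers of their label, in part because the rule asked for them. Lhx2, Lhx9, Hand2 and Prrx1 are rule genes, as are Tbx5 and Twist1 among the limb mesenchyme markers. The 7 limb mesenchyme markers summed to 1633 CPM (UMIs scaled to a common total per library) in mutant 1, 1347 CPM in mutant 2 and 1375 CPM in control 1, and Lhx2, Lhx9, Hand2 and Prrx1 to 1111, 1060 and 934 CPM. Median Hand2 per member was 0.373, 0.357 and 0.362 CP10K. Hand2 summed over members was, however, at 45.3, 43.3 and 42.6 CPM in mutant 1, mutant 2 and control 1, below the 74.2, 71.2 and 86.9 CPM of proximal mesenchyme (distal criterion not met). Tbx3, a posterior transcription factor of the early bud, stood at 47.7 CPM in members against 36.5 CPM in distal cells without a Hand2 UMI (called distal anterior here) in mutant 1. These levels were 43.3 and 26.7 CPM in mutant 2, and 41.2 and 35.2 CPM in control 1. Alx4, an anterior factor, ran the other way, at 26.0 and 46.9 CPM in mutant 1, 27.1 and 52.4 CPM in mutant 2, and 25.4 and 38.5 CPM in control 1. Gli3, the repressor that dominates the anterior bud, was likewise lower in members in each library, at 804 and 1306 CPM, 638 and 946 CPM, and 583 and 995 CPM. The Shh targets did not all follow this line (levels are given below). Ptch1 was higher in members than in distal anterior cells in both mutants but lower in control 1. Grem1 was lower in members in mutant 2 and control 1 and about level in mutant 1. Hoxd11 was higher in members in each library, though only slightly in control 1. Like Hand2, Tbx3 was not particular to the members. With each cell of mutant 1 thinned to 10000 UMIs, 60.6% of proximal cells had a Tbx3 UMI, against 42.1% of members. The distal anterior cells were shallower (medians of 28092.5, 36870.5 and 26801.5 UMIs, against 64629, 63401.5 and 80161 UMIs in members), and a Hand2 UMI is more easily found in a deep cell, so the line between the classes partly follows depth.

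Members summed to 15892060 UMIs in mutant 1, 40000816 UMIs in mutant 2 and 18584047 UMIs in control 1, with median mitochondrial shares of 2.04%, 1.91% and 1.76%. No barcode among the members was shared between libraries. Markers of endothelium (30.7, 33.4 and 33.1 CPM summed over 11 genes), ectoderm (9.0, 10.0 and 5.65 CPM over 12 genes, with Krt5 and Krt14 at 0 in mutant 1 and control 1) and macrophages (4.72, 5.40 and 6.73 CPM over 6 genes) were low. The endothelium sum includes Cdh5, Pecam1 and Emcn and the ectoderm sum Epcam, Trp63 and Wnt6, which the rule itself kept low. Myogenic (2.33 to 7.27 CPM in mutants, 1.18 CPM in the control), neural crest (5.57 to 6.54 CPM and 4.52 CPM), somite (1.5 to 2.83 CPM and 3.17 CPM), coelomic (1.67 to 3.21 CPM and 0.484 CPM) and flank markers (9.95 to 16.5 CPM and 17.2 CPM) were also low. Erythroid markers were not: the 8 genes reached 5733 CPM (mutant 1), 2324 CPM (mutant 2) and 687 CPM (control 1) when summed. Y-linked UMIs without Xist were found in 95.9% and 94.6% of mutant members and in 68.1% of control members, and Xist alone in 1.65%, 0.307% and 14.4%, although each library was described as holding a female sample. The part of blood RNA and of sex in the differences below was not tested as such. The main results are therefore also given for cells with a Y-linked UMI and no Xist UMI (male cells), and for sums in which each gene lost the 2% of cells with most of its UMIs (trimmed sums).

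Esco2 (chromosome 14, 65819038 to 65833994, minus strand, GRCm38) stood at 16.5 CPM in mutant 1 and 19.3 CPM in mutant 2, against 36.5 CPM in control 1. Both mutants lay below the control, and Esco2 fell by 1.02 on the log2 scale (SE 0.22, adjusted p = 0.00034 by edgeR's quasi-likelihood test with Benjamini-Hochberg adjustment; called under 11 of 20 alternatives). With every cell thinned to 10000 UMIs, 15.7% and 16.6% of mutant members had an Esco2 UMI, against 28.1% of control members. Erythroid cells, where Prrx1-Cre is not active, had one in 20.5% and 20.1% of mutant cells and 24.5% of control cells. Chromium 3′ chemistry reads transcript ends and the floxed exon's position is not stated, so the level does not measure the deletion itself. The CRE feature, the Cre transgene by its name, was read in 16 of 243 members of mutant 1 and 54 of 652 members of mutant 2. Control 1 had it in 0 of 229 members, an upper limit of 1.31% from 3 counts, so the libraries matched their genotype labels. The other 18 genes of the cohesin list did not pass the test, among them the paralogue Esco1 (21.6 and 19.5 CPM in mutants, 20.7 CPM in control) and the ring subunit Smc3 (258 and 271 CPM, 251 CPM).

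Mutant members differed from control members in 217 of 9846 tested genes (2.2% called at an adjusted p under 0.05), of which 96 were higher (0.975%) and 121 lower (1.23%). A gene was tested when its mean level was at least 5 CPM. At an unadjusted p under 0.05 there were 727 genes (7.38%), and the median log2 fold over all tested genes was -0.0007. Of the 96 genes that rose, 34 did so again in trimmed sums and 60 in male cells. Of the 121 that fell, 31 did so again in trimmed sums and 75 in male cells. Male cells were 233 of 243 members of mutant 1, 617 of 652 of mutant 2 and 156 of 229 of control 1. Both alternatives use the same libraries, so neither is an independent repeat. The test rests on 1 residual degree of freedom and borrows its spread across genes with infinite prior degrees of freedom. With these set to 4, no gene was called by edgeR (330 at an unadjusted p under 0.05), and DESeq2 called 23, all of them among the 217. Library totals without TMM factors left 5 calls, a mitochondrial limit of 5% left 5, and members with at least 4 CP10K of Lhx2 and Lhx9 left 0 (591 at an unadjusted p under 0.05). Beside the main genes, the number of alternative settings with a test under which the call held is given.

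**Figure D1:**
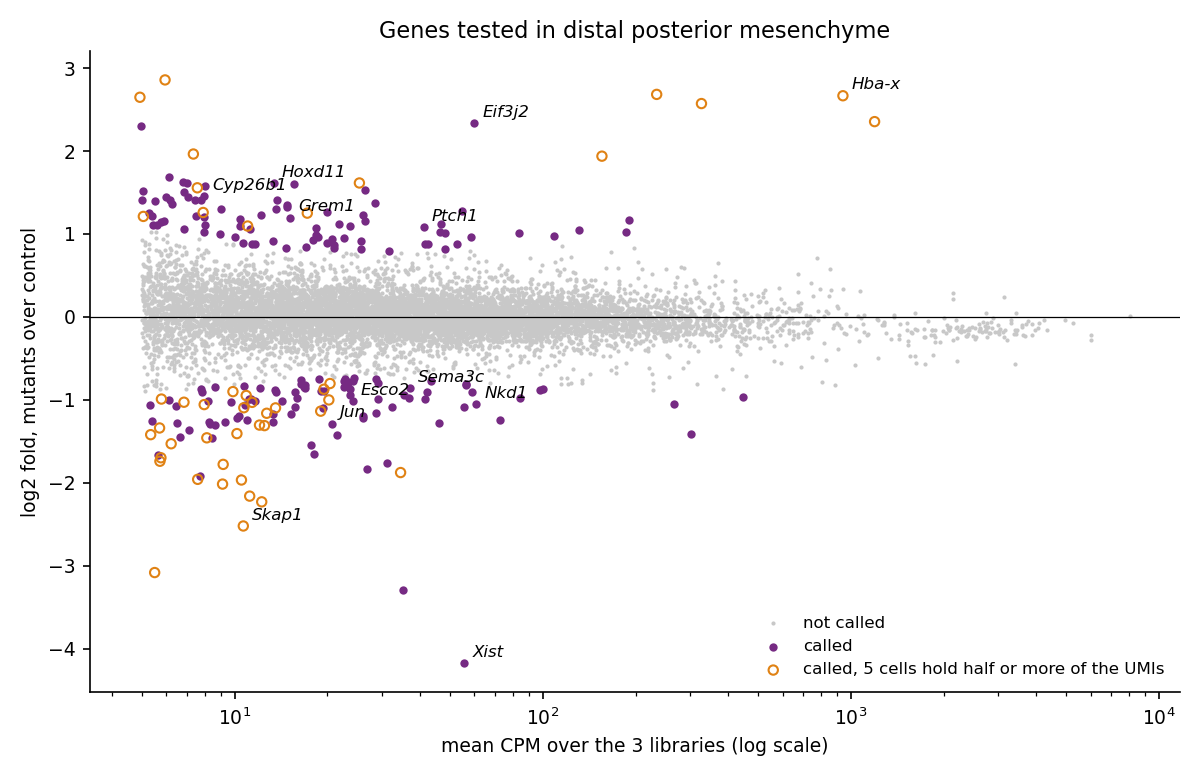
Each point is 1 gene tested in the distal posterior members, with its mean level in CPM (log scale) on the horizontal axis and its log2 fold of mutant over control on the vertical axis. Purple points passed an adjusted p of 0.05, grey points did not, and open orange points are called genes of which 5 cells held 50% or more of the UMIs in the library where the gene was highest. Called genes lie on both sides of 0, with 96 above and 121 below.

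Of the Hedgehog pathway, the target Ptch1 rose in the mutant members, and so did Gli1 in a fit that took in lower genes. Ptch1 (chromosome 13, 63508328 to 63573598, minus strand), the Shh receptor and a direct target of the pathway, had 46.7 CPM in mutant 1 and 52.9 CPM in mutant 2, against 23.5 CPM in control 1. Both mutants stood at about the same level above the control, and Ptch1 rose by 1.08 on the log2 scale (SE 0.25, adjusted p = 0.0014 by edgeR). It also rose in trimmed sums (adjusted p = 0.036) and in male cells (adjusted p = 0.040), and under 12 of 20 alternatives in all. Ptch1 was not called with the p53 criterion dropped, with the criteria applied at 10000 UMIs per cell, or with library totals alone. At 10000 UMIs per cell, 37.2% (95% Clopper-Pearson interval 31.1 to 43.6%) and 37.4% (33.7 to 41.3%) of mutant members had a Ptch1 UMI, against 17.0% (12.3 to 22.5%) of control members. Erythroid cells had a Ptch1 UMI in 18.7% and 20.1% of mutant cells and 25.8% of control cells. Prrx1, a mesenchymal gene read in 99.2%, 99.1% and 96.4% of members, reached 4.44%, 6.35% and 1.52% of the same erythroid cells. In the control the erythroid share of Ptch1 was above that of members, and the source of the erythroid Ptch1 reads was not tested. Unthinned, 80.2% and 77.9% of mutant members and 60.3% of control members had a Ptch1 UMI. These intervals cover counting error only.

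Other targets of the pathway lay under the level filter and entered a fit over the 12774 genes that averaged 1 CPM or more, which called 208 genes (1.63%), 68 of them higher (0.532%) and 140 lower (1.1%). Gli1, the activator that the pathway itself induces, had 2.92 and 4.96 CPM in mutants and 1.05 CPM in control (48, 198 and 19 UMIs) and rose by 1.84 (SE 0.45, adjusted p = 0.046 by edgeR). Hhip, a Hedgehog-binding inhibitor, had 1.77 and 1.43 CPM in mutants and 0.500 CPM in control and was not called (log2 fold 1.51, adjusted p = 0.34 by edgeR). Transcripts of the ligand were few: Shh had 10, 47 and 4 UMIs, in 4 of 243, 24 of 652 and 3 of 229 members, and in 0 of 630, 0 of 462 and 0 of 398 erythroid cells. Shh was under the filter of both fits and was not tested. Among the other tested members of the list, Gas1, a Shh co-receptor, had 185 and 87.6 CPM in mutants and 74.8 CPM in control (log2 fold 0.86, adjusted p = 0.10 by edgeR). The co-receptors Boc (log2 fold 0.52) and Cdon (0.32), the ligand exporter Disp1 (0.33), the transducer Smo (-0.13), the inhibitor Sufu (0.01) and the transcription factors Gli2 (0.08) and Gli3 (0.31) were not called. In all, 1 of 9 tested Hedgehog genes was called, 7 of 9 lay above the control in both mutants (32.2% of all tested genes did) and the median log2 fold was 0.32.

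Of the posterior transcription factors, Hoxd11 rose and the others did not pass the test. Hoxd11 (chromosome 2, 74679557 to 74687016, plus strand), a 5′ HoxD gene that Shh signalling maintains in the posterior bud, had 16.3 CPM in mutant 1 and 18.3 CPM in mutant 2, against 5.61 CPM in control 1. It rose by 1.61 on the log2 scale (SE 0.27, adjusted p = 5.5e-07 by edgeR), with an adjusted p of 0.0028 in trimmed sums and 0.0043 in male cells, and was called under 13 of 19 alternatives. At equal depth 17.4% and 15.6% of mutant members had a Hoxd11 UMI, against 4.46% of control members, and in erythroid cells it was read in 0 of 630 cells of mutant 1 (which allows up to 0.476%), 0.219% of mutant 2 and 0 of 396 cells of control 1 (up to 0.758%). Hoxd11 was thus seen in limb cells and hardly at all in blood. Hoxd10 had 95.8 and 129 CPM in mutants and 73.0 CPM in control (log2 fold 0.63, adjusted p = 0.44 by edgeR). Hoxd13, the most 5′ gene of the cluster, had 5.61 and 5.71 CPM in mutants and 2.78 CPM in control, under the filter and not called in the wider fit (log2 fold 1.00, adjusted p = 0.21 by edgeR). Tbx2 (log2 fold -0.29), Tbx3 (0.14), Sall1 (-0.06) and Ets2 (0.23), all expressed posteriorly in the bud, were not called. Osr1 and Hoxd12 stayed at or under 1.85 CPM in every library. The 6 tested genes of this list had a median log2 fold of 0.18, with 4 above the control in both mutants (32.2% of all tested genes were).

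On the HoxA side, Hoxa10 (chromosome 6, 52231197 to 52240854, minus strand) had 62.6 and 77.0 CPM in mutants and 35.9 CPM in control and rose by 0.96 (SE 0.26, adjusted p = 0.012 by edgeR). The call was lost in trimmed sums (adjusted p = 0.11) and in male cells (0.14). Hoxa11, a marker of the forearm segment, had 27.8 CPM in mutant 1 and 15.3 CPM in mutant 2 around the 19.9 CPM of the control, and Hoxa13, which marks the later autopod, had 1, 5 and 0 UMIs. The genes nearer the 3′ ends of the clusters, grouped after their values were seen, had a lower median. Of 17 tested Hox genes of paralogue groups 2 to 8, 3 fell, 1 rose and the median log2 fold was -0.19, while of 7 tested genes of groups 9 to 13, 2 rose, none fell and the median was 0.33. Hoxb2 had 41.7 and 21.0 CPM in mutants and 62.0 CPM in control (-0.99, adjusted p = 0.0014 by edgeR), and its call was lost in trimmed sums (adjusted p = 0.28) and male cells (0.15). Hoxc5 (9.57 and 7.41 CPM in mutants, 16.9 CPM in control) and Hoxb6 (36.4 and 33.7 CPM in mutants, 60.01 CPM in control) fell as well. The Hoxb6 call was lost in trimmed sums (adjusted p = 0.19 by edgeR) and male cells (0.094), and the Hoxc5 call in trimmed sums (0.064). Hoxc8 was the exception, at 9.63 and 10.1 CPM in mutants and 4.22 CPM in control (log2 fold 1.21, adjusted p = 0.0029 by edgeR; 0.048 in trimmed sums, 0.11 in male cells). The antisense transcript Hotairm1 of the HoxA cluster had 36.7 and 25.8 CPM in mutants and 75.6 CPM in control and fell (log2 fold -1.28 by edgeR, adjusted p = 7.8e-06; 0.015 in trimmed sums, 0.0085 in male cells). Whether counting used strand is not stated, so reads of Hotairm1 and its neighbours may not be told apart.

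Of 14 BMP genes tested at a mean of 5 CPM or more, the antagonist Grem1 was called. Grem1 (chromosome 2, 113746164 to 113758646, minus strand), a secreted BMP antagonist that relays Shh signalling to the apical ridge, had 17.5 CPM in mutant 1 and 19.8 CPM in mutant 2, against 8.10 CPM in control 1. It rose by 1.2 on the log2 scale (SE 0.26, adjusted p = 0.00039 by edgeR), also in trimmed sums (adjusted p = 0.044) and male cells (0.021), and under 11 of 19 alternatives. Grem1 was not called with the p53 criterion dropped, nor in members with UMIs in none of the p53 program genes. At equal depth 13.6% and 14.8% of mutant members had a Grem1 UMI, against 3.57% of control members, while erythroid cells had one in 0.317% and 0.438% of mutant cells and in 0 of 396 control cells, which allows up to 0.758%. Bmp4 (63.5 and 70.8 CPM in mutants, 62.8 CPM in control) and Bmp7 (52.3 and 43.1 CPM, 56.4 CPM) were not called. Bmp2, a posterior ligand under the filter, had 1.89 and 1.55 CPM in mutants and 5.22 CPM in control and fell in the wider fit (log2 fold -1.58, adjusted p = 0.034 by edgeR), though 5 cells held 40.4% of its control UMIs. The BMP targets Msx2 (24.1 and 36.4 CPM in mutants, 47.0 CPM in control, adjusted p = 0.17 by edgeR) and Bambi (61.7 and 50.8 CPM, 88.0 CPM, adjusted p = 0.24 by edgeR) had lower values without passing the test. The 14 tested BMP genes had a median log2 fold of -0.07. None of 12 tested FGF genes was called, with Fgf10, the mesenchymal signal to the ridge, at 188 and 136 CPM in mutants and 176 CPM in control, and the FGF-induced phosphatase Dusp6 at 106 and 140 CPM in mutants and 97.5 CPM in control. The median over the FGF list was 0.08.

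Cyp26b1 and Shox2 rose among the genes of the proximal limb and retinoic acid. Cyp26b1 (chromosome 6, 84571414 to 84593908, minus strand), an enzyme that degrades retinoic acid in the distal bud, had 7.92 and 12.2 CPM in mutants and 3.66 CPM in control (log2 fold 1.46, SE 0.30, adjusted p = 0.00014 by edgeR). Shox2 (chromosome 3, 66971727 to 66981771, minus strand), a homeobox gene needed for the upper arm, had 62.3 and 53.4 CPM in mutants and 28.6 CPM in control (log2 fold 1.01, SE 0.25, adjusted p = 0.0049 by edgeR). Both calls held in trimmed sums (adjusted p = 0.020 and 0.031) and in male cells (0.020 and 0.023), and under 10 of 19 alternatives for Cyp26b1 and 10 of 20 for Shox2. Neither gene was called in members with UMIs in none of the p53 program genes, nor with library totals alone. The other 10 tested genes of the list had log2 folds between -0.07 and 0.38 and were not called, among them the proximal factors Meis1 (305 and 212 CPM in mutants, 230 CPM in control) and Meis2 (745 and 511 CPM, 559 CPM). Of 11 tested limb field genes, the low gene Tfap2a rose (4.08 and 9.01 CPM in mutants, 2.78 CPM in control; log2 fold 1.25, adjusted p = 0.0085 by edgeR), and its call was lost in male cells (adjusted p = 0.19). Lmo2, a LIM-domain cofactor gene, had 6.82 and 8.98 CPM in mutants and 14.0 CPM in control (log2 fold -0.81, adjusted p = 0.051 by edgeR), and Lmx1b, which sets dorsal identity, stood at 157 and 171 CPM in mutants and 159 CPM in control. Of 8 tested anterior factors, Zic2 was called (17.8 and 7.56 CPM in mutants, 6.66 CPM in control; log2 fold 0.89, adjusted p = 0.038 by edgeR; 0.68 in trimmed sums, 0.57 in male cells), with mutant 2 close to the control, and Alx1 and Alx4 were not.

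**Figure D2:**
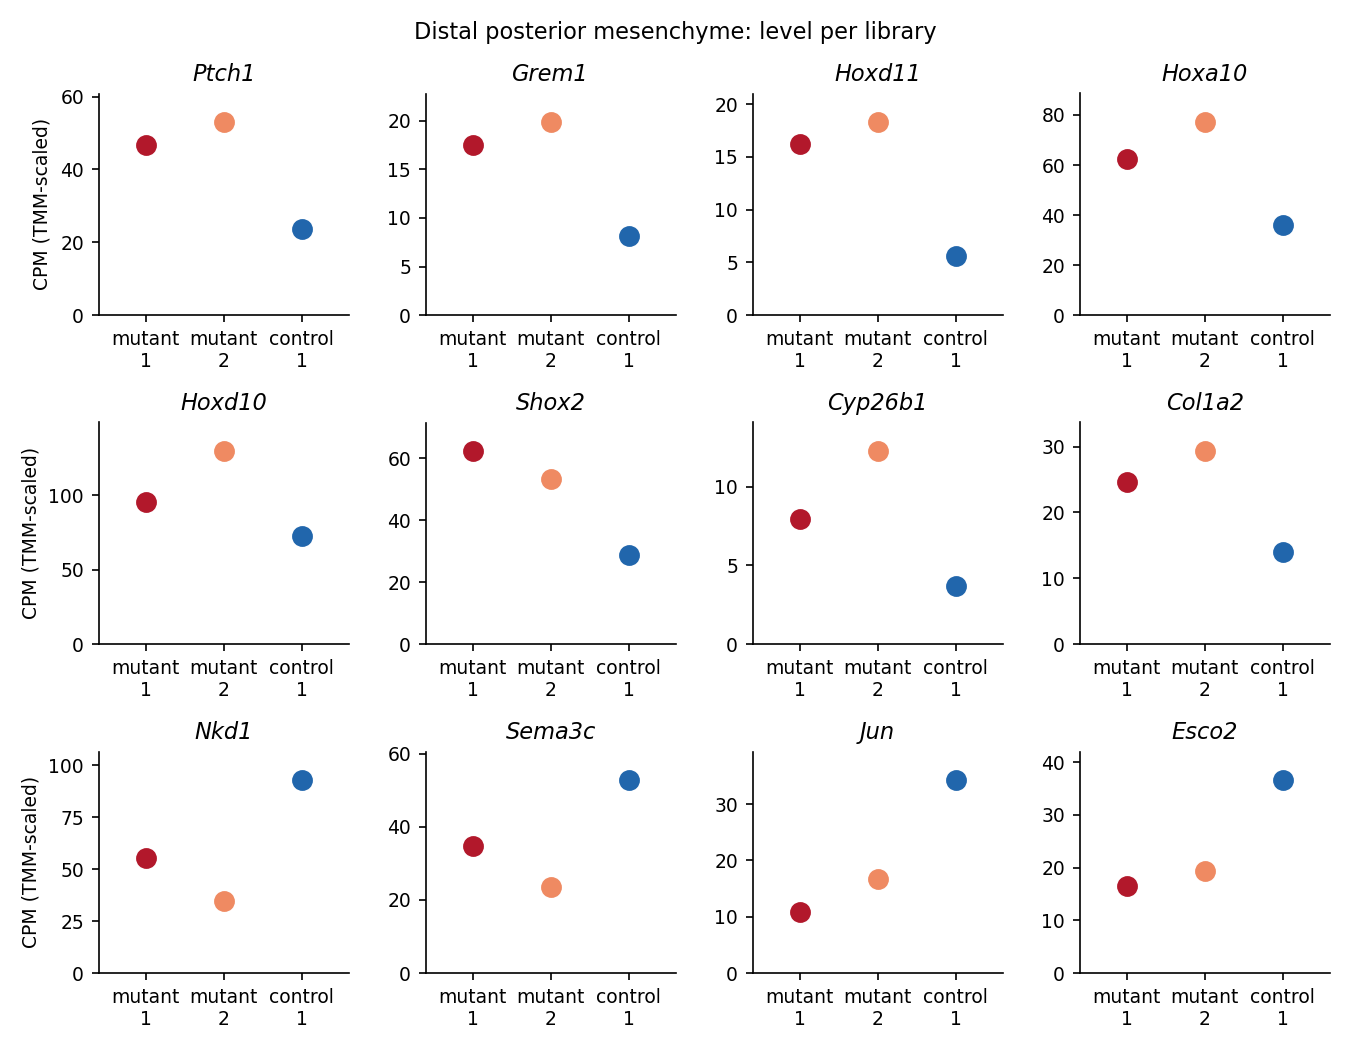
Level in CPM, scaled by TMM factors, of 12 genes in the distal posterior members of mutant 1, mutant 2 and control 1, each panel with its own axis from 0 and each point 1 library. Ptch1, Grem1, Hoxd11, Hoxa10, Shox2, Cyp26b1 and Col1a2 stand higher in both mutants, while Nkd1, Sema3c, Jun and Esco2 stand lower. Hoxd10 was not called.

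Of the WNT feedback genes, Nkd1 and, in the wider fit, Sp5 and Rnf43 fell. Nkd1 (chromosome 8), an inducible inhibitor of WNT signalling, had 55.1 CPM in mutant 1 and 34.6 CPM in mutant 2, against 92.7 CPM in control 1, and fell by 1.05 on the log2 scale (SE 0.24, adjusted p = 0.0011 by edgeR). The call held in male cells (adjusted p = 0.038) and was lost in trimmed sums (0.12). Sp5, a direct WNT target under the filter, had 2.92 and 1.13 CPM in mutants and 7.22 CPM in control and fell in the wider fit (log2 fold -1.87, adjusted p = 0.025 by edgeR), though 5 cells held 33.1% of its control UMIs. Rnf43, a ubiquitin ligase that removes WNT receptors, was also called there, but 5 control cells held 100% of its UMIs in that library. The commonly used readout Axin2 (48.7 and 48.1 CPM in mutants, 63.0 CPM in control), the nuclear factors Lef1 (472 and 365 CPM, 528 CPM) and Tcf7 (31.7 and 31.1 CPM, 44.1 CPM) and the inhibitor Dkk1 (28.8 and 25.8 CPM, 41.6 CPM) were below the control in both mutants and not called. Wnt5a, the main distal ligand, had 49.7 and 55.2 CPM in mutants and 44.4 CPM in control. Over the 13 tested WNT genes 1 was called and the median log2 fold was -0.01. Of the 13, 5 lay below the control in both mutants (31.8% of all tested genes did) and 5 above it (32.2%).

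Of the genes for signals to vessels and migrating cells, Sema3c fell. This guidance cue had 34.7 and 23.5 CPM in mutants and 52.7 CPM in control (log2 fold -0.86, SE 0.23, adjusted p = 0.0096 by edgeR), and its call was lost in trimmed sums (adjusted p = 0.21) and male cells (0.37). With the criteria applied at 10000 UMIs per cell, the Sema3c log2 fold was 0.0041. Vegfa (48.7 and 32.2 CPM in mutants, 55.8 CPM in control) and Hgf, which draws muscle precursors into the bud (78.7 and 60.1 CPM, 47.7 CPM), were not called. In the matrix list, Col1a2 rose, at 24.7 and 29.3 CPM in mutants and 14.0 CPM in control (log2 fold 0.95, SE 0.24, adjusted p = 0.0057 by edgeR; 0.085 in trimmed sums, 0.011 in male cells). Its partner chain Col1a1 did not differ by the test (12.1 and 13.6 CPM in mutants, 13.9 CPM in control), and the 18 tested matrix genes had a median of 0.11. Of the skeletal genes, Sox8 rose (8.29 and 11.2 CPM in mutants, 4.50 CPM in control; log2 fold 1.11, adjusted p = 0.0085 by edgeR), with 0.092 in trimmed sums. Sox9, the master regulator of cartilage, had 27.2 and 19.1 CPM in mutants and 14.9 CPM in control (log2 fold 0.63, adjusted p = 0.25 by edgeR). The median of the 8 tested skeletal genes was 0.41, the highest of the 24 lists.

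The rule kept out cells with UMIs in 2 or more of 5 p53 targets, and 27 tested p53 targets outside it gave no call. The cell cycle regulator Ccng1 had 8.96 and 9.44 CPM in mutants and 5.38 CPM in control (log2 fold 0.77, adjusted p = 0.21 by edgeR) and the kinase Plk2 had 21.1 and 21.5 CPM in mutants and 33.5 CPM in control (log2 fold -0.65, adjusted p = 0.11 by edgeR). Mdm2, the p53 inhibitor (36.6 and 41.5 CPM in mutants, 42.0 CPM in control), Bax (185 and 227 CPM, 199 CPM) and Bbc3, which encodes Puma (8.41 and 9.16 CPM, 7.44 CPM), stood close to the control. The median log2 fold of the list was 0.05, and with the p53 criterion dropped it was 0.32 with 5 genes called, from members that then included 52, 109 and 3 further cells. Some members lay just inside the criterion: 20.6% and 24.5% of mutant members had UMIs in exactly 1 of the 5 genes, against 8.30% of control members, and just outside it 8, 22 and 2 cells had UMIs in exactly 2. Cdkn1a stood at 0.609 and 0.951 CPM in mutant members and 0.222 CPM in control members, and at 300.0, 325.8 and 56.9 CPM in the cells left out. Trp53 itself had 140 and 177 CPM in mutants and 198 CPM in control and was not called. None of 19 tested apoptosis genes (median -0.01) and none of 25 DNA damage genes (median 0.04) was called.

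Cell cycle lists held no call either. Of 28 S phase genes, 20 lay below the control in both mutants (31.8% of all tested genes did), with a median of -0.15, and the replication clamp Pcna had 81.9 and 101 CPM in mutants and 161 CPM in control (log2 fold -0.82, adjusted p = 0.092 by edgeR). Of 32 genes of G2 and mitosis, 17 lay above the control in both mutants (32.2% of all tested genes did), with a median of 0.12. The kinetochore gene Cenpf had 333 and 314 CPM in mutants and 215 CPM in control (log2 fold 0.59, adjusted p = 0.62 by edgeR). Of 16 tested G1 genes, the G1 cyclins Ccne1 (115 and 54.0 CPM in mutants, 131 CPM in control) and Ccne2 (24.7 and 24.4 CPM, 37.6 CPM) were lower without passing the test. The replication-dependent Hist1 histone genes, grouped after their values were seen, were lower: of 43 tested, 19 fell (1.23% of all tested genes were called lower), none rose and 34 lay below the control in both mutants (31.8% of all tested genes did), with a median log2 fold of -0.66. Hist1h2ap, for example, had 188 and 201 CPM in mutants and 517 CPM in control (log2 fold -1.41). These transcripts mostly lack a poly(A) tail, which 3′ chemistry relies on, and their near-identical copies make single genes of the family uncertain.

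Of 22 tested genes of glycolysis and the hypoxia response, 1 fell and none rose. Slc16a3, which exports lactate, had 105 and 52.2 CPM in mutants and 143 CPM in control (log2 fold -0.87, adjusted p = 0.045 by edgeR), and its call was lost in trimmed sums (adjusted p = 0.49) and male cells (0.25). None of the 22 lay above the control in both mutants (32.2% of all tested genes did) and 14 lay below it in both (31.8%). The median log2 fold was -0.48, with -0.17 in mutant 1 and -0.61 in mutant 2. The enzymes Eno1 (738 and 676 CPM in mutants, 1252 CPM in control) and Pfkl (108 and 90.02 CPM, 171 CPM) had log2 folds of -0.82 and -0.79 and adjusted p of 0.10 and 0.12 by edgeR. Of 25 ribosome biogenesis genes none was called, yet 24 lay below the control in both mutants (31.8% of all tested genes did), with a median of -0.24. The nucleolar protein gene Npm1 had 5364 and 5880 CPM in mutants and 6813 CPM in control. For the integrated stress response, the median over 14 tested genes was -0.29, with no call and 10 below the control in both mutants (31.8% of all tested genes were). Its regulator Atf4 had 78.4 and 93.8 CPM in mutants and 120 CPM in control. The 14 imprinted growth genes had a median of -0.02 and no call.

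Jun fell while other immediate early genes did not pass the test. Jun (chromosome 4), a subunit of the AP-1 factor that dissociation of tissue can induce, had 10.9 CPM in mutant 1 and 16.8 CPM in mutant 2, against 34.2 CPM in control 1 (log2 fold -1.29, SE 0.22, adjusted p = 2.7e-06 by edgeR; 0.029 in trimmed sums, 0.0022 in male cells, called under 11 of 20 alternatives). Its partners Fos (0.914 and 14.0 CPM in mutants, 5.88 CPM in control) and Fosb (1.46 and 33.5 CPM, 12.7 CPM) differed more between the 2 mutants than between genotypes. The heat shock genes Hspa1a (0.426 and 1.25 CPM in mutants, 5.61 CPM in control) and Hspa1b (1.28 and 1.68 CPM, 10.1 CPM), near-identical copies that handling can also induce, fell in the wider fit (adjusted p = 0.0053 and 0.00014 by edgeR). However, 5 cells held 49.5% of the control UMIs of Hspa1a and 36.3% of those of Hspa1b. The part of cell handling in these values was not tested.

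**Figure D3:**
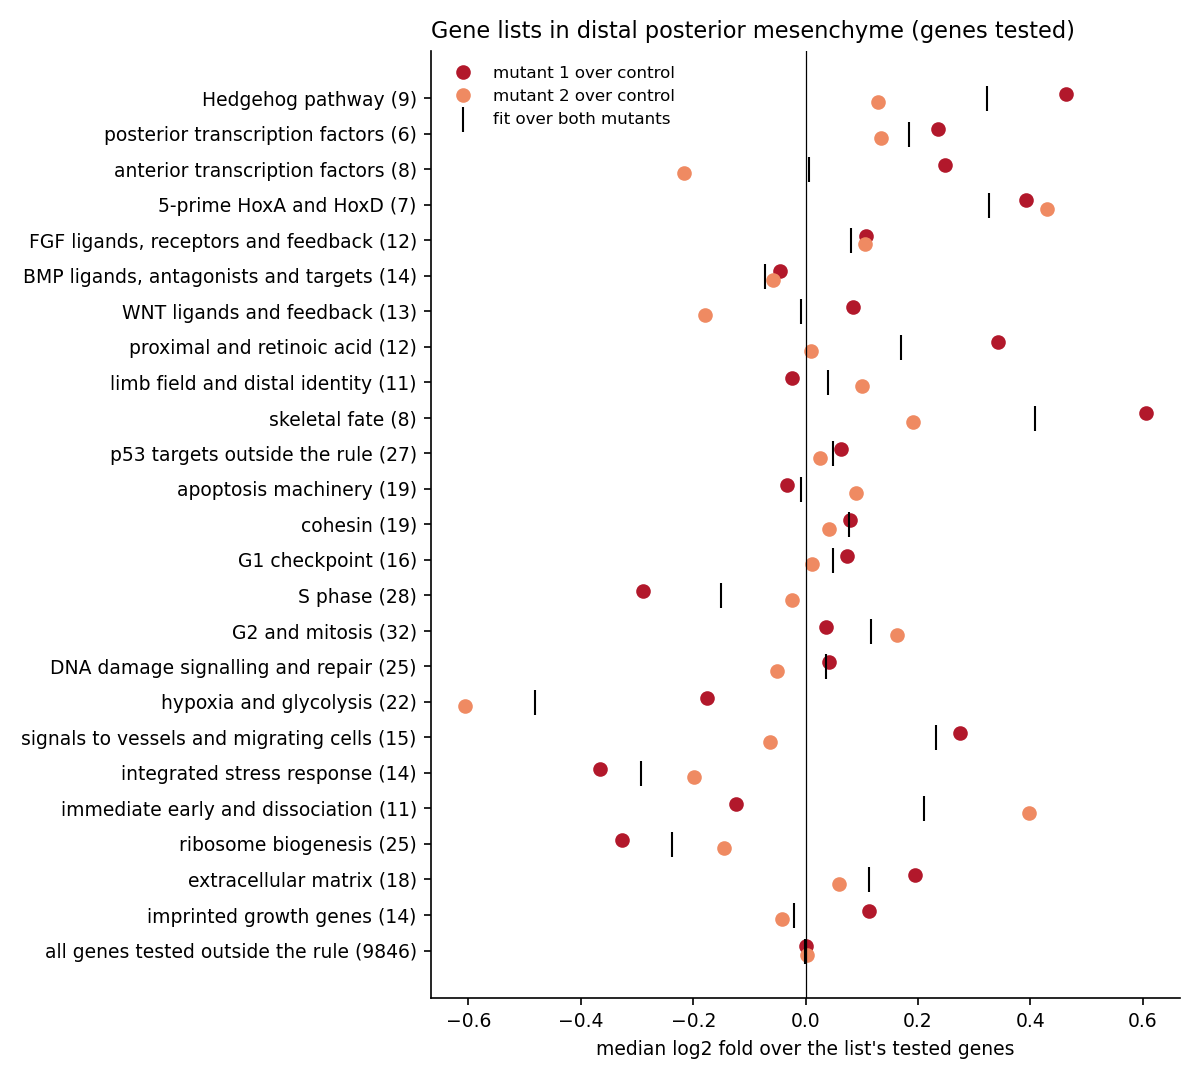
Median log2 fold over the tested genes of each of 24 lists in mutant 1, mutant 2 and the edgeR fit, with all tested genes for comparison at -0.0007. Skeletal (0.41), 5′ Hox (0.33) and Hedgehog (0.32) lists have the highest medians, and glycolysis (-0.48), stress response (-0.29) and ribosome biogenesis (-0.24) the lowest. The lists were chosen with earlier results of these data known and carry no test.

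Outside the lists, the 12 genes of lowest p in each direction included blood genes, the sex-linked Xist, poorly resolved genes and genes carried by few cells. The globins Hba-x, Hba-a1, Hba-a2, Hbb-y and Hbb-bh1 were among the higher genes together with the metallothioneins Mt1 and Mt2, Eif3j2, Rragd, Itm2a and Nrg1. Hba-x had 1859 and 761 CPM in mutants and 206 CPM in control. In trimmed sums the log2 folds of the 5 globins lay between -0.14 and 0.33. Eif3j2 (81.5 and 82.2 CPM in mutants, 16.2 CPM in control) shares 86.4% of the 60-base words of its 3′ end with another gene, which makes its level uncertain. Itm2a, a membrane protein gene expressed in early cartilage, had 29.1 and 38.5 CPM in mutants and 11.7 CPM in control (log2 fold 1.53) and held in trimmed sums and male cells. Among the lower genes were Xist (12.7 and 4.28 CPM in mutants, 150 CPM in control), the poorly resolved Gm10036 and Gm44511, and Gm33180, Skap1, Lnx1, Tex21, Gm29585, Dqx1, AC117197.3, 1700034P13Rik and Gm42726, and for all of the last 9 but Gm29585 (45.4%) 5 control cells held 50% or more of the control UMIs.

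Members differed among themselves along Hand2. In each library they were ranked by Hand2 CP10K and split evenly into a low, a middle and a high Hand2 group (81, 81 and 81 cells in mutant 1, 218, 217 and 217 in mutant 2, and 77, 76 and 76 in control 1), and CPM was taken from summed UMIs without TMM factors, as a description. Ptch1 climbed with Hand2, at 27.3, 52.6 and 75.3 CPM in mutant 1, 31.6, 52.1 and 83.9 CPM in mutant 2, and 18.7, 24.3 and 29.4 CPM in control 1. The high group was above the low group in every library, and each mutant group was above the control group of the same rank. Hoxd11 had 9.5, 18.5 and 26.1 CPM in mutant 1, 10.8, 17.5 and 29.6 CPM in mutant 2, and 5.1, 3.9 and 8.6 CPM in control 1. Gli1 had 1.8, 1.7 and 6.2 CPM in mutant 1, 1.9, 6.3 and 7.7 CPM in mutant 2, and 0.84, 0.47 and 2.3 CPM in control 1. Most Shh UMIs of the mutants were in the high group, 9 of 10 in mutant 1 and 39 of 47 in mutant 2, and none of the 4 of the control was. Tbx3 climbed likewise, from the low to the high group at 32.6, 51.7 and 71.7 CPM in mutant 1, 25.7, 42.3 and 69.4 CPM in mutant 2, and 31.1, 42.4 and 55.2 CPM in control 1. Hoxa10 hardly varied with Hand2, at 60.3, 64.2 and 71.5 CPM in mutant 1, 72.9, 77.6 and 82.0 CPM in mutant 2, and 38.8, 27.9 and 37.5 CPM in control 1.

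Grem1 ran against Hand2 in all 3 libraries and Cyp26b1 in the mutants. Grem1 had 19.7, 19.3 and 14.3 CPM in the low, middle and high group of mutant 1, 20.4, 21.3 and 17.3 CPM in mutant 2, and 11.3, 7.5 and 1.0 CPM in control 1. The high group of the control held only 4 Grem1 UMIs, against 64 in that of mutant 1 and 195 in that of mutant 2, so the control value rests on few UMIs. In the mutants the high group was below the low group as well, by less. Cyp26b1 had 11.6, 7.7 and 3.6 CPM in mutant 1, 16.5, 12.5 and 5.9 CPM in mutant 2, and 4.0, 3.0 and 3.6 CPM in control 1. Alx4, the anterior factor, was lowest where Hand2 was highest in all 3 libraries, at 14.0, 15.7 and 8.3 CPM in the high groups of mutant 1, mutant 2 and control 1 against 35.3, 35.0 and 28.0 CPM in the low groups. The groups also differed in depth, with medians of 83084, 43753 and 55714 UMIs in mutant 1, 71729.5, 62096 and 55226 UMIs in mutant 2, and 115548, 90470 and 33688.5 UMIs in control 1, and a deep cell with 1 Hand2 UMI has a low CP10K. The part of depth in these gradients was not tested.

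**Figure D4:**
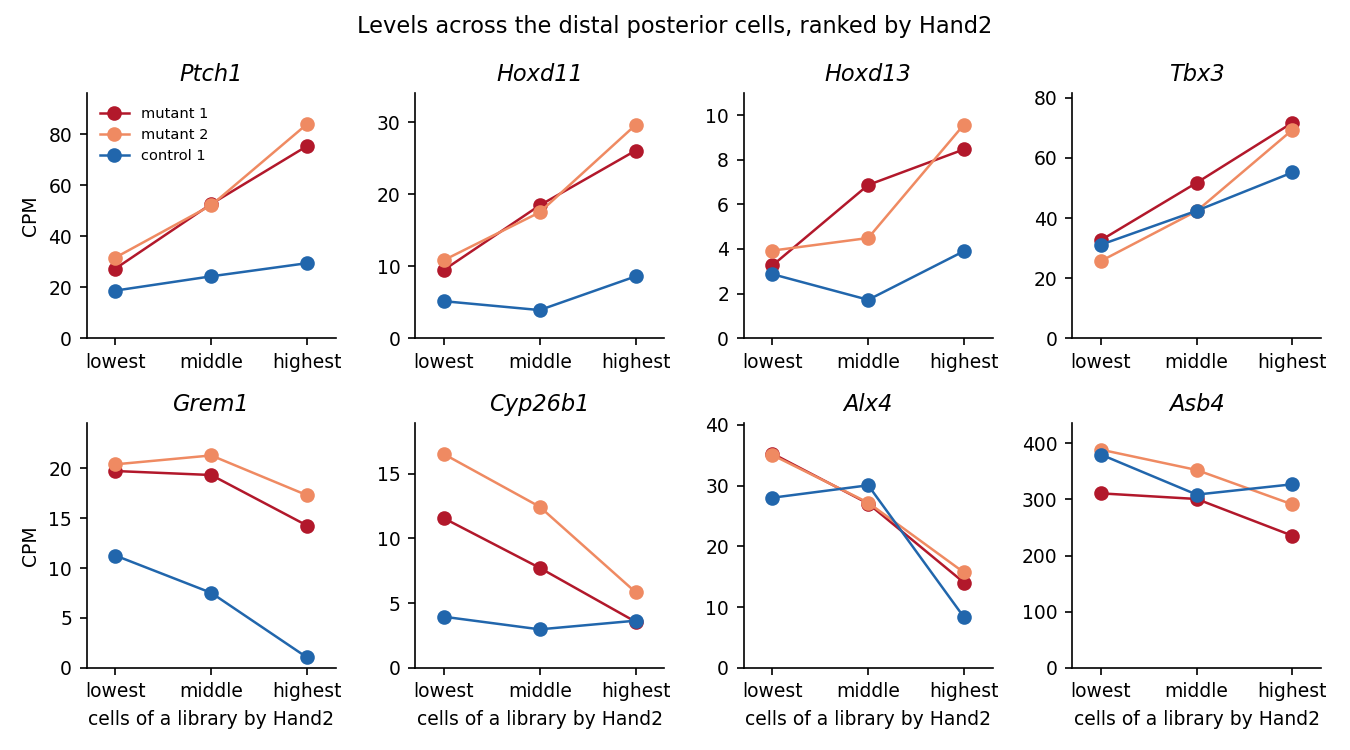
Level in CPM of 8 genes in the low, middle and high Hand2 group of the members of mutant 1, mutant 2 and control 1, each line 1 library. Ptch1, Hoxd11 and Tbx3 are higher where Hand2 is higher, and Grem1 and Alx4 are lower there, as is Cyp26b1 in the mutants (3.6 and 5.9 CPM in the high groups, 11.6 and 16.5 CPM in the low groups). Asb4 and Hoxd13 are drawn for comparison.

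Whether the mutant effect in the members differed from that in distal anterior cells was tested with an interaction term on the 6 sums. Of 9925 genes, 84 were called (0.846%), 37 with a higher (0.373%) and 47 with a lower (0.474%) mutant effect in the members, and 4.65% had an unadjusted p under 0.05. Jun was the 1 called gene of the 24 lists, with anterior levels of 11.3 and 16.8 CPM in mutants and 18.6 CPM in control (difference of log2 folds -0.89, adjusted p = 0.019 by edgeR). Ptch1 had anterior levels of 34.5 and 43.9 CPM in mutants and 29.9 CPM in control (difference 0.68, adjusted p = 0.071 by edgeR). Grem1 had 17.2 and 23.4 CPM in anterior mutant cells and 16.2 CPM in anterior control cells (difference 0.86, adjusted p = 0.082 by edgeR), so the mutant members stood at about the anterior level. Hoxd11 had 9.10 and 9.75 CPM in anterior mutant cells and 4.96 CPM in control (difference 0.70, adjusted p = 1 by edgeR). The genes that rose among the Shh targets were thus not shown to differ from the anterior effect. In trimmed sums 12 genes were called, of which 11 were among the 84: Cdh13, Dcc, Kcnh7, Mdga2, Rspo2 and Sorcs2 with a higher and Gdpd1, Gm11290, Gm29585, Jun and Zswim5 with a lower effect in the members.

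Against proximal mesenchyme, 255 of 10091 genes were called (2.53%), 146 with a higher (1.45%) and 109 with a lower (1.08%) mutant effect in the members, and 8.79% had an unadjusted p under 0.05. Proximal cells held less Hand1 (28.3 and 10.3 CPM in mutants, 73.4 CPM in control) and Postn (20.3 and 35.0 CPM, 77.0 CPM) in the mutants. Aldh1a2 was higher there (46.4 and 30.2 CPM in mutants, 28.4 CPM in control). The part of the make-up of the proximal class in these differences was not tested. Col1a2 had 92.3 and 92.7 CPM in proximal mutant cells and 139 CPM in proximal control cells, opposite to its direction in the members (difference 1.55, adjusted p = 1.8e-07 by edgeR), and Col1a1, Col5a2 and Col9a1 differed the same way (1.03, 1.02 and 1.43). The BMP target Msx2 had 25.3 and 17.7 CPM in proximal mutant cells and 63.7 CPM in control (difference 0.97, adjusted p = 0.0089 by edgeR), and Msx1 differed by 0.64 (adjusted p = 0.049 by edgeR). The WNT inhibitor Dkk2 had 9.20 and 9.11 CPM in mutant members and 7.33 CPM in control members, and 46.8 and 40.0 CPM in proximal mutant cells and 99.1 CPM in proximal control cells (difference 1.54, adjusted p = 1.6e-06 by edgeR). Hoxa10 differed the other way, since its proximal levels of 6.29 and 18 CPM in mutants and 2.76 CPM in control gave a larger fold there (difference -1.06, adjusted p = 0.031 by edgeR), as did Hoxa11 (-1.38, adjusted p = 0.046 by edgeR). Lmx1b (-0.79, adjusted p = 0.0014 by edgeR), Tfap2c (-1.36, adjusted p = 0.00059 by edgeR) and Meox2 (-0.91, adjusted p = 0.0077 by edgeR) also had a lower effect in the members. Ptch1 had 49.3 and 56.0 CPM in proximal mutant cells and 28.6 CPM in control, and its effect was not called as different (difference 0.22, adjusted p = 0.93 by edgeR). Hoxd11 had 1.94 and 7.2 CPM in proximal mutant cells and 0.423 CPM in control (difference -1.53, adjusted p = 0.093 by edgeR).

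The members made up 39.3% (35.4 to 43.3%) of distal mesenchyme in mutant 1 and 46.4% (43.8 to 49.1%) in mutant 2, against 52.9% (48.1 to 57.7%) in control 1. With the p53 criterion dropped these shares were 47.7%, 54.2% and 53.6%, since 52 and 109 distal posterior cells of the mutants carried the program against 3 of the control. Without the criterion, mutant 2 lay above the control and the interval of mutant 1 (43.7 to 51.8%) overlapped that of the control (48.8 to 58.4%). Of all limb mesenchyme the members were 19.9% (17.7 to 22.2%) and 30.4% (28.5 to 32.4%) in mutants and 22.0% (19.5 to 24.6%) in control, and of all kept barcodes 8.08%, 15.8% and 8.91%. For both of these denominators the mutants lay on either side of the control, and an exact permutation of 2 libraries against 1 cannot give a p below 0.333. With the criteria applied to cells thinned to 10000 UMIs, 93, 243 and 83 cells remained, 16.3% and 18.7% of distal mesenchyme in mutants and 21.2% in control. Near the distal limit, 30, 60 and 33 members had 2 to 2.5 CP10K of Lhx2 and Lhx9, and 25, 51 and 27 cells lay just outside at 1.5 to 2 CP10K. With 1 Hand2 UMI stood 97, 269 and 82 members, and 264, 542 and 198 otherwise matching cells had none.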

How the data were processed

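Counts of UMIs per gene and barcode were deposited for 3 Chromium 3′ v3 libraries, 2 mutant and 1 control, and were used as deposited by the authors. Per the file headers the matrices were written by Cell Ranger 7.0.0, and per the submitters' processing notes the build was mm10 and Seurat 4.0.0 served for a step they do not name. Cells were released with trypsin, frozen, thawed, pooled and strained, per the labels' protocols. Each matrix held 31054 features, 31053 Ensembl genes and CRE.

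Cells were selected by the stated criteria, and doublets were not removed (Scrublet through scanpy 1.11.5 called 3, 8 and 2 members, and leaving them out was an alternative). UMIs were summed per library over members, distal anterior cells (Hand2 at 0 UMIs) and proximal cells (Lhx2 and Lhx9 under 2 CP10K, 492, 598 and 579 cells). The sums entered the quasi-likelihood test of edgeR 4.0.16 ( TMM factors of 1.03, 0.999 and 0.969, prior count 2, mean of at least 5 CPM) in R 4.3.3, without the 17 rule genes. Differences between classes were tested by an interaction term with library terms. CPM values of genes are TMM-scaled, and marker sums, Hand2 groups and CRE are not. limma 3.58.1, DESeq2 1.42.0, matplotlib 3.10.9, pandas 2.3.3, numpy 2.4.6, scipy 1.17.1 and Python 3.11.15 were also used. The script was tested on simulated data. Annotation was GENCODE on GRCm38, matched by Ensembl ID.

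The text names the rule genes, Esco2, Trp53 and CRE, the 12 called genes of lowest p in each direction with the same sign in both mutants, up to 4 called members of each list or else its 2 of lowest p, all tested members of 3 lists, and 6 genes per direction of each difference. Genes named beyond this rule, the Hox and Hist1 groups, and the male-cell and trimmed alternatives were chosen after their values were seen. The members and the 24 lists were chosen with earlier results of these data known. Some items are not reported here.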

Additional observations from a re-analysis of the deposited data

Results flagged for a closer look

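For 12 genes of lowest p the mutant effect in the members differed from that in distal anterior cells by the interaction test. The difference of log2 folds was 3.20 for Slc35d2, 2.38 for Arhgap4, 1.92 for Xist, 1.88 for Kcnh7, 1.75 for Mdga2 and 1.46 for Msrb3. It was -5.91 for Tas1r1, -3.98 for Tex21, -2.66 for Lnx1, -2.22 for AC117197.3, -2.05 for Gm29585 and -1.89 for Gdpd1. Of these, Kcnh7, Mdga2, Gm29585 and Gdpd1 were called again in trimmed sums.

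Against proximal mesenchyme, the difference was 2.87 for Hba-a1, 2.63 for Hbb-bh1, 2.46 for Ahnak, 1.85 for Cobll1, 1.55 for Col1a2 and 1.54 for Mt1. It was -3.03 for Lnx1, -2.0 for Xist, -1.94 for Cadm2, -1.42 for Ntng1, -1.38 for Myo1c and -1.33 for Gdpd1. The globins and Xist moved with the erythroid and sex markers of the libraries, whose part was not tested.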

How the results depend on the processing

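No paired analysis was possible because the control label carries no replicate number. Called genes between mutant and control members (217) numbered 104 with DESeq2's size factors (RLE) in edgeR, 487 with no level filter, 65 at a mean of at least 20 CPM, 23 by DESeq2 and 129 by voom. They numbered 0 with prior degrees of freedom of 4, 5 at a mitochondrial share under 5%, 80 with UMIs in none of the 5 p53 genes, 7 at 2 or more Hand2 UMIs, 0 at 4 or more CP10K of Lhx2 and Lhx9 (591 at an unadjusted p under 0.05), 51 with the criteria applied at 10000 UMIs, 26 from thinned sums and 65 from trimmed sums. Library totals alone gave 5, 1 higher and 4 lower, and moved the median of all genes to 0.067. For the difference from anterior cells (84) the counts were 197 at a mean of at least 1 CPM, 210 with no filter, 20 at 20 CPM, 8 by DESeq2, 0 with prior degrees of freedom of 4, 128 at a mitochondrial share under 5%, 49 in male cells, 12 from thinned sums and 12 from trimmed sums. For the difference from proximal cells (255) they were 165 with totals, 490 at 1 CPM, 0 with no filter, 141 at 20 CPM, 21 by DESeq2, 0 with prior degrees of freedom of 4, 107 at a mitochondrial share under 5%, 133 at 4 CP10K, 87 with criteria at 10000 UMIs and 29 from thinned sums. The cause was not tested.

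The share of distal mesenchyme in mutant 1 was 45.5% at a mitochondrial share under 5%, 47.7% without the p53 criterion, 31.2% with UMIs in none of its genes, 23.6% at 2 Hand2 UMIs, 33.7% at 4 CP10K and 16.3% with criteria at 10000 UMIs. In mutant 2 it was 50.3%, 54.2%, 35.0%, 27.3% and, with criteria at 10000 UMIs, 18.7%. In control 1 it was 48.0% at 1000 genes, 33.9% at 2 Hand2 UMIs and 21.2% with criteria at 10000 UMIs.

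Of 88 genes, 13 changed sign under some alternative. With criteria at 10000 UMIs the log2 fold was -0.37 for Mt1, -0.081 for Hba-a2, 2.54 for Dqx1, 0.0041 for Sema3c, -0.059 for Sufu and 0.36 for Sall1. Without Scrublet doublets it was -0.052 for Hbb-bh1, -0.12 for Hba-a2 and 0.0011 for Hoxd8, and in trimmed sums -0.06045 for Hbb-bh1, -0.14 for Hba-a2 and 0.0086 for Hoxd8. From thinned sums it was 0.0303 for Smo, 0.38 for Sall1, -0.047 for Hoxa11, 0.12 for Hoxd8 and -0.024 for Etv5, and in male cells -0.12 for Hoxa11. With no level filter Sufu was at -0.000359, at 2 Hand2 UMIs at -0.016, where Sall1 was at 0.0082, and without the p53 criterion at -0.013, where Plk2 was at 0.10 and Cadm2 at 0.22. Hoxd8 was also at 0.068 with totals, 0.023 at 20 CPM, 0.0041 by voom, 0.00076 at the stricter gene minimum, 0.031 at a mitochondrial share under 5%, 0.042 with UMIs in none of the p53 genes, 0.022 at 2 Hand2 UMIs and 0.092 at 4 CP10K. Leaving out a mutant was not counted among these alternatives. The 2 mutants pointed opposite ways for Hoxa11 (log2 fold 0.48 in mutant 1, -0.38 in mutant 2) and Hoxd8 (0.096 and -0.10). Genes of a few CPM rest on few UMIs, and depth limits what can be said of them.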

Other observations

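In the mutant members 30 genes rose, and 30 fell, in the main sums, in trimmed sums and in male cells alike, most of them outside the lists. These fits share their libraries and most of their cells. Col25a1, a membrane collagen, had 240 and 227 CPM in mutants and 104 CPM in control (log2 fold 1.16 by edgeR, adjusted p = 0.0069). Lama2, a laminin chain, had 17.3 and 16.6 CPM in mutants and 6.83 CPM in control (1.30), and Cdh3, P-cadherin, had 9.08 and 8.46 CPM in mutants and 2.78 CPM in control (1.63). Smoc1, a secreted matrix protein needed for limb development, had 17.0 and 19.9 CPM in mutants and 7.33 CPM in control (1.33). The transcription factors Ebf2 (41.5 and 30.5 CPM in mutants, 13.8 CPM in control, 1.38) and Ets1 (33.0 and 24.4 CPM, 13.4 CPM, 1.09) rose as well, as did Map1b, which binds microtubules (56.1 and 80.0 CPM, 28.1 CPM, 1.27).

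Among those that fell, Cdx1, a homeobox gene of the trunk, had 10.4 and 7.76 CPM in mutants and 21.9 CPM in control (log2 fold -1.27 by edgeR, adjusted p = 1.2e-05). Gstp1, a glutathione transferase, had 16.6 and 19.4 CPM in mutants and 42.1 CPM in control (-1.22), and Nme2, a nucleoside diphosphate kinase, had 19.9 and 27.0 CPM in mutants and 50.0 CPM in control (-1.08). Crym had 15.5 and 20.7 CPM in mutants and 41.7 CPM in control (-1.19), and Hopx had 7.43 and 7.61 CPM in mutants and 17.9 CPM in control (-1.24). These genes were picked out after their values were seen.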
